A study of Sus scrofa with 15 samples.

Results

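The 10 genes described here encode 6 cytokines (IL6, IL7, IL15, IL17D, IL33 and TNFSF8) and 4 cytokine receptor chains (IL6R, IL6ST, IL27RA and IL10RA). They were chosen by name as interleukins and other cytokine receptor genes, with earlier results of these data known. All 10 were found by symbol among the 30477 genes of the count files. Backfat, the subcutaneous fat of the back, was biopsied from 12-month-old Iberian pigs and read by RNA-seq as 15 libraries, 1 per pig and 5 per diet. Control pigs (C) ate a compound feed, rationed to 70% of the energy they would take freely. The dry olive pulp (DOP) diet was a compound feed containing 45% olive pulp, given at 60%. The wet crude olive cake (WCOC) diet combined a compound feed at 60% with a freely offered silage of 75% olive cake. Each diet was fed in 1 pen, so diet and pen cannot be told apart, and the pigs sequenced were those with the most suitable RNA rather than a random draw.

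Cytokines are secreted or surface-bound proteins with which immune and tissue cells signal to each other. IL-7 and IL-15 act through receptors that contain the common gamma chain encoded by IL2RG and maintain lymphocytes. IL-15 is also made by many non-immune cells. IL-6 binds IL6R and then recruits gp130, the signal-transducing chain encoded by IL6ST, and the IL-27 receptor pairs IL27RA with the same chain. IL10RA binds IL-10, which restrains inflammation. IL-17D is a member of the IL-17 family that is expressed outside the lymphoid system. IL-33 is a nuclear alarmin of stromal and endothelial cells in fat that is sensed through IL1RL1. TNFSF8 encodes the CD30 ligand, a membrane protein of activated leukocytes. Adipose tissue holds adipocytes, vessels, stromal progenitors and resident immune cells, and all of these contribute transcripts to a bulk library.

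The count on genes was 22373715 to 34745218 per library. Adipocyte markers summed to 10774 to 18874 CPM (counts scaled to library size, with the TMM factors of edgeR) in every library of this fat, and CD79A, a B cell marker, had 0 counts in all 15. Libraries also differed in other cells. The summed level of 5 skeletal muscle markers was 42.6 to 3152 CPM in C, 31 to 40652 CPM in DOP (highest in replicate 5) and 16.5 to 627 CPM in WCOC. The 11 macrophage markers summed to 260 to 752 CPM in C, 186 to 465 CPM in DOP and 125 to 346 CPM in WCOC. Control replicate 5 held the highest control value for 9 of these 11 markers, and also for 5 of the 10 cytokine and receptor genes (IL7, IL27RA, IL6, IL10RA and TNFSF8). DOP replicate 5 held the lowest DOP value for 7 of the 10 genes. In whole tissue, fewer cells of a type and less RNA per cell cannot be told apart.

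Per kilobase of exon, IL6ST was the most abundant of the 10 transcripts, with a median of 38.8 CPM per kb over the 15 libraries (range 29.6 to 49.7). Its range did not overlap that of any other gene. A middle group followed, in the order IL6R (median 6.95 CPM per kb), IL33 (6.66), IL17D (5.21), IL15 (5.13), IL27RA (4.38) and IL10RA (3.74). Neighbours within this group overlapped over the 15 libraries, so the order inside it is not resolved. TNFSF8 (0.888 CPM per kb) and IL6 (0.683) lay lower and overlapped each other, and IL7 was lowest, at 0.0862 CPM per kb (range 0.0392 to 0.257). IL7 did not overlap IL6 on this scale. Its place depends on the exon lengths used, which were 8902 bases for IL7, 1123 for IL6 and 702 for TNFSF8. Before division by length, the diet means overlapped, at 0.566 to 1.29 CPM for IL7, 0.644 to 1.15 for IL6 and 0.5 to 1.3 for TNFSF8. The lengths came from RefSeq and the counts from Ensembl genes, so the order of IL7, IL6 and TNFSF8 is not resolved. The receptor chain shared by IL-6 and IL-27 was present at a much higher level than any of the 6 ligands, while IL6, IL7 and TNFSF8 rested on 8 to 81 counts per library.

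**Figure D1:**
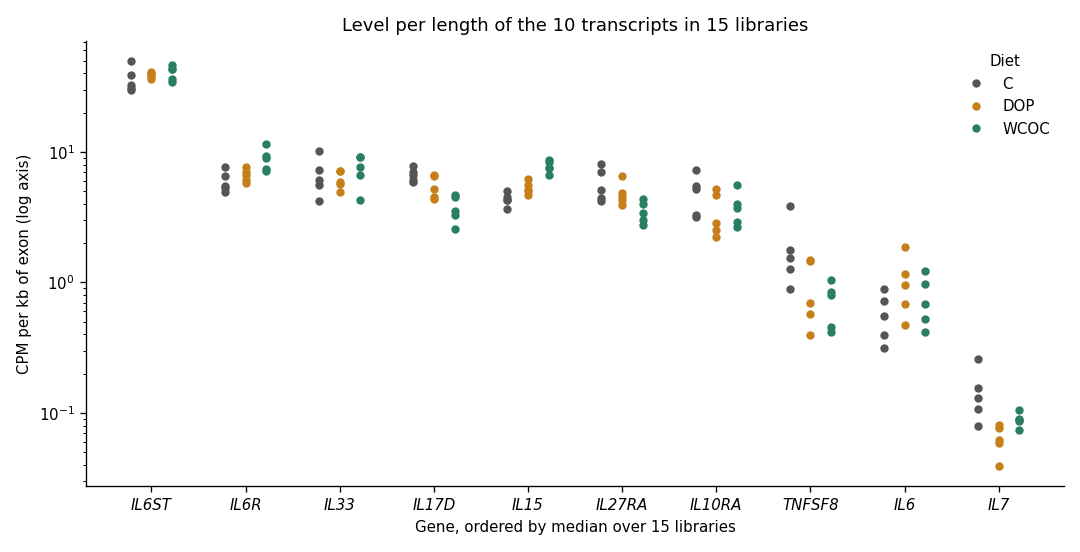
Level of each of the 10 transcripts in CPM per kb of exon on a log axis, with 1 point per library coloured by diet and genes ordered by their median over 15 libraries. IL6ST lies above the other genes in every library and IL7 below them, and the 6 genes from IL6R to IL10RA form an overlapping middle group.

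The first question was which of these genes differed between the diets. A gene was called when its Benjamini-Hochberg adjusted p from the edgeR quasi-likelihood test was under 0.05 and its log2 fold change (log2FC) was at least 0.58 in size. In WCOC vs. C, 3 of 10 were called, against 6.25% of the 14918 genes tested: IL15 was higher (2.33% of all genes were), and IL17D and IL27RA were lower (3.93% of all genes). Of the 10, 6 had an unadjusted p under 0.05, against 26.4% of all genes. DESeq2 called 4 (the same 3 and TNFSF8), beside 1219 over all genes. It started from all 30477 genes with its own filter, so its totals are not shares of the 14918 and no share is given. In DOP vs. C, 0 of 10 were called, against 0.764% of all genes. Here 3 had an unadjusted p under 0.05 (IL7, IL15 and TNFSF8, against 17.6% of all genes). DESeq2 called 1 (IL7), beside 507 over all genes. In WCOC vs. DOP, 0 of 10 were called, against 7.76%, where 4 had an unadjusted p under 0.05 (28.1% of all genes). DESeq2 also called 0, beside 1527 over all genes. The median log2FC of the 10 genes was −0.11 in WCOC vs. C, −0.19 in DOP vs. C and 0.09 in WCOC vs. DOP, beside 0.00, 0.01 and 0.00 over all tested genes. The comparisons with C share the 5 control libraries and are not independent of each other. The 10 genes were chosen with earlier results of these data known, so their shares beside those of all genes are no test of excess.

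**Figure D2:**
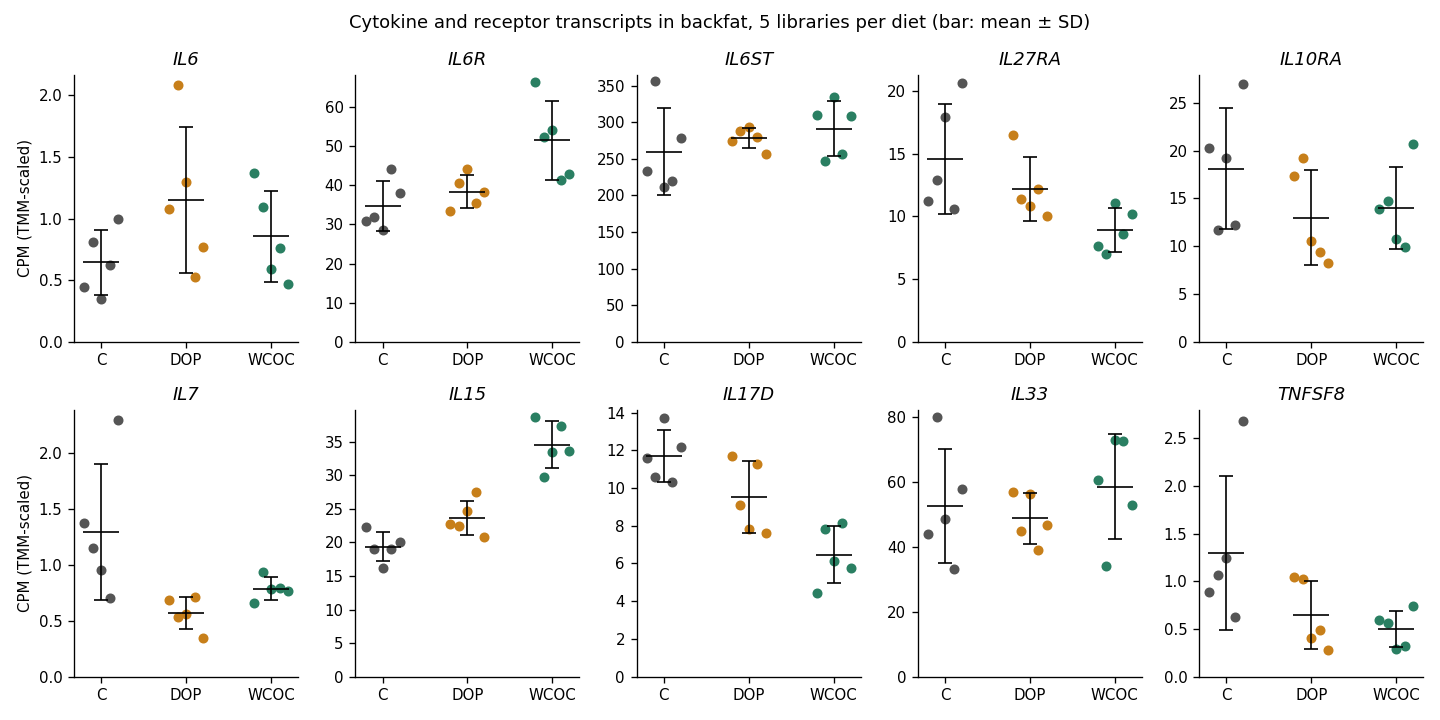
TMM-scaled CPM of the 10 genes in each library, with a line at the mean and bars of 1 SD for the 5 libraries of a diet. IL15 in WCOC lies at 29.8 to 38.7 CPM, above every C and DOP library, and IL17D in WCOC lies at 4.45 to 8.13 CPM, below every C library.

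The promoter windows of 3 genes are shown because they precede the genes called in WCOC vs. C. Each spans 250 bases before to 50 bases after the RefSeq gene start in Sscrofa11.1, 5′ to 3′ on the strand of the gene. Capitals mark a match to 1 of 5 searched motifs on either strand. IL15 lies on the minus strand of chromosome 8 (gene 85666963 to 85740980), and its window is chr8:85740931-85741230. IL27RA lies on the minus strand of chromosome 2 (65127278 to 65149665), with the window chr2:65149616-65149915. IL17D lies on the plus strand of chromosome 11 (1029219 to 1066086), with the window chr11:1028969-1029268.
IL15: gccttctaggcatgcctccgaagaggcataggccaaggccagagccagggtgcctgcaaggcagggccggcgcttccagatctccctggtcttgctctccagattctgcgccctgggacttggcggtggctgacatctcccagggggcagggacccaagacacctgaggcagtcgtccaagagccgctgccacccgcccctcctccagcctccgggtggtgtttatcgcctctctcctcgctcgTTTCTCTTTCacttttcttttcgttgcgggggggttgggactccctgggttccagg
IL27RA: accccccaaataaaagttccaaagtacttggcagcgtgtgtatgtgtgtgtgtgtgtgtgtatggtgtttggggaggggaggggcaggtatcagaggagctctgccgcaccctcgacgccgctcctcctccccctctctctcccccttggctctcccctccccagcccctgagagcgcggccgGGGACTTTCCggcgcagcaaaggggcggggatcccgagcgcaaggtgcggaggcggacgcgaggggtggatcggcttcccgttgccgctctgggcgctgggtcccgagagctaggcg
IL17D: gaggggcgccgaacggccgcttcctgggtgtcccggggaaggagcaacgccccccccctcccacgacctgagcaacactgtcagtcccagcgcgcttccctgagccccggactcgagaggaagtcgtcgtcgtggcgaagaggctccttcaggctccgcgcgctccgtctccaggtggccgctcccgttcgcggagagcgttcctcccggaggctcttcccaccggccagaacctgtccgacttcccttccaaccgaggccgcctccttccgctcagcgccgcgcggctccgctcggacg
The IL15 window held 1 match to the core of the interferon-stimulated response element (TTTC, any 2 bases, TTTC), written TTTCTCTTTC, at −6 from the gene start, and 3.57% of 19525 promoters of that length hold one. The IL27RA window held 1 match to the NF-kB motif (GGGA, any 2 bases, TTCC), at −67, which 2.82% of promoters hold. IL6 was the other gene of the 10 with this motif, at −72. The IL17D window held none of the 5 motifs and was rich in G and C (71%, against a median of 58.7% over all promoters). Of the remaining motifs, GAS (TTCNNNGAA, 7.11% of promoters) occurred in TNFSF8, CRE (TGACGTCA, 2.26%) in IL10RA and AP-1 (TGANTCA, 6.06%) in 0 of the 10. These are matches of letters in short windows and were not tested as binding sites.

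IL15 was measured at 22.3, 19.1, 16.2, 19 and 20.1 CPM in the control libraries. In DOP it stood at 22.8, 22.4, 24.7, 27.5 and 20.8 CPM. In WCOC it stood at 38.7, 29.8, 33.5, 37.4 and 33.7 CPM. All 5 WCOC libraries lay above all 10 others, while DOP and C overlapped. The mean rose from 19.4 ± 2.21 CPM in C to 34.6 ± 3.54 CPM in WCOC (SD, n = 5), 1.79-fold, with a log2FC of 0.84 ± 0.10 (SE) and an adjusted p of 0.000413. Groups that do not overlap, with WCOC higher, occurred for 3.75% of all tested genes. On flow cell A, which held 4 control and all 5 WCOC libraries, the log2FC was 0.85 (adjusted p = 0.0093), and with any 1 library left out it was 0.78 to 0.90. In DOP the mean was 23.6 ± 2.55 CPM and the difference from C was not called (log2FC 0.29 ± 0.10, adjusted p = 0.164). WCOC also lay above DOP without overlap, which held for 4.14% of all genes, and here the adjusted p was 0.00503 and the log2FC of 0.55 ± 0.10 stayed under the limit of 0.58. Beside IL15, ADIPOQ was the 1 of 7 adipocyte markers called in WCOC vs. C and CLDN5 the 1 of 5 endothelial markers, both higher. The log2FC was above 0 for 5 adipocyte markers and below 0 for 2 (FABP4 and CIDEC), and above 0 for all 5 endothelial markers, with a median of 0.42 in each list. The endothelial markers summed to 851 to 1051 CPM in C and 934 to 1531 CPM in WCOC, and the adipocyte markers to 10774 to 13964 and 12815 to 18874 CPM. Their part in the IL15 result was not tested. IL15 varied least between pigs of the 3 genes called, with a coefficient of variation of 10.2% to 11.4% in the 3 diets.

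The other ligand of the common gamma chain receptors, IL7 (chromosome 4, 57677895 to 57744713, plus strand), had 10 to 69 counts per library. Its levels were 1.37, 1.15, 0.956, 0.701 and 2.29 CPM in C. They were 0.683, 0.528, 0.556, 0.714 and 0.349 CPM in DOP. They were 0.655, 0.936, 0.784, 0.794 and 0.767 CPM in WCOC. Every DOP and WCOC library lay below the control median of 1.15 CPM, but control replicate 4 lay inside both ranges. The log2FC in DOP vs. C was −1.19 ± 0.29 with an adjusted p of 0.0633, which missed the limit. DESeq2 called it (−1.21, adjusted p = 0.016), as did the fit without control replicate 4 (−1.35, adjusted p = 0.0493), while without control replicate 5, the highest control, the log2FC was −0.88 (adjusted p = 0.143). With flow cell as a covariate it was −2.01 (adjusted p = 0.0132), but all DOP libraries and only control replicate 5 were on flow cell B, so no spread within that flow cell stands behind the control value. In WCOC vs. C the log2FC of IL7 was −0.72 ± 0.29 (adjusted p = 0.124).

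IL17D read 11.6, 10.6, 13.7, 10.3 and 12.2 CPM in the control libraries. In DOP it read 11.7, 9.09, 7.81, 11.3 and 7.64 CPM. In WCOC it read 4.45, 7.82, 6.14, 8.13 and 5.75 CPM. Every WCOC library lay below every control, whereas DOP spanned both ranges. The mean fell from 11.7 ± 1.36 to 6.46 ± 1.52 CPM in WCOC (log2FC −0.86 ± 0.17, adjusted p = 0.00874), and groups separated in this direction occurred for 3.87% of all genes. On flow cell A alone the log2FC was −0.85 (adjusted p = 0.0345), and it was −0.95 to −0.75 with any 1 library left out. In DOP vs. C it was −0.30 ± 0.17 (adjusted p = 0.392). In WCOC vs. DOP it was −0.56 ± 0.17 with an adjusted p of 0.0479, just under the fold limit. IL17D overlaps EEF1AKMT1 on the opposite strand, and the strand setting of the counting is not given in the sources used here. Its count could therefore be raised or lowered by that neighbour, which was not tested. CD93, reported as a receptor for IL-17D, stood at 121 to 228 CPM and was not called in any comparison (log2FC 0.28 ± 0.14, adjusted p = 0.216 in WCOC vs. C, and 0.35 ± 0.14, adjusted p = 0.209 in DOP vs. C).

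Of 5 stromal progenitor markers, 2 were called lower in WCOC than in C, as IL17D was (DPT and LUM). The log2FC was below 0 for 4 of the 5 and above 0 for CD34, the median was −0.51, and their summed level was 1182 to 2110 CPM in C and 712 to 1467 CPM in WCOC. In WCOC vs. DOP, 2 were called lower (PDGFRA and LUM) and 1 had a log2FC above 0. Their part in the IL17D result was not tested.

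IL33 (chromosome 1, 215899830 to 215941944) and TNFSF8 (chromosome 1, 255436206 to 255459020), both on the minus strand, were not called in any comparison. IL33 ranged from 33.2 to 80.0 CPM in C, 38.9 to 57.0 CPM in DOP and 34.1 to 72.9 CPM in WCOC, with log2FCs of −0.11 ± 0.23 and 0.15 ± 0.23 against C (adjusted p = 0.847 and 0.706). The 3 ranges overlapped widely. IL1RL1, its receptor, had 1 to 8 counts per library and did not pass the filter on low counts, and IL1RAP, the receptor partner shared with IL-1, was measured at 9.28 to 26.5 CPM. TNFSF8 had 8 to 81 counts per library. It read 0.883, 1.07, 1.24, 0.623 and 2.68 CPM in C. It read 1.04, 1.02, 0.401, 0.488 and 0.279 CPM in DOP. It read 0.589, 0.562, 0.294, 0.318 and 0.738 CPM in WCOC. All 5 WCOC and all 5 DOP libraries lay below the control median of 1.07 CPM, and both diets overlapped the controls. The log2FC was −1.38 ± 0.45 in WCOC vs. C (adjusted p = 0.0625) and −1.02 ± 0.44 in DOP vs. C (adjusted p = 0.245). Without control replicate 5, its highest value, these were −0.94 (adjusted p = 0.172) and −0.58 (adjusted p = 0.513). DESeq2 (−1.39, adjusted p = 0.0273) and the fit without control replicate 4 (−1.56, adjusted p = 0.0459) called the WCOC difference.

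IL6 (chromosome 9, 91506421 to 91510830, plus strand) was a rare transcript with 9 to 55 counts per library. It ranged from 0.350 to 0.994 CPM in C, 0.526 to 2.08 CPM in DOP and 0.472 to 1.37 CPM in WCOC. The log2FC was 0.83 ± 0.40 in DOP vs. C (adjusted p = 0.299) and 0.40 ± 0.40 in WCOC vs. C (adjusted p = 0.556). The DOP libraries differed among themselves by 3.95-fold between replicate 4 (lowest) and replicate 2 (highest). All 3 diets overlapped.

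Of the receptors, IL27RA read 11.2, 12.9, 17.9, 10.6 and 20.6 CPM in C. It read 16.5, 11.4, 10.8, 12.2 and 10 CPM in DOP. It read 7.63, 6.96, 11.1, 8.58 and 10.2 CPM in WCOC. Control replicates 3 and 5 were high, and the 2 ranges overlapped where control replicate 4 lay below WCOC replicate 3. The mean fell from 14.6 ± 4.38 to 8.90 ± 1.74 CPM in WCOC (log2FC −0.72 ± 0.20, adjusted p = 0.0366). This call did not hold on flow cell A alone (−0.57, adjusted p = 0.11), nor without control replicate 5 (−0.57, adjusted p = 0.0865). It was also lost without control replicate 3 or WCOC replicate 1, 2 or 4, with adjusted p-values of up to 0.0956. In DOP vs. C the log2FC was −0.27 ± 0.20 (adjusted p = 0.536). Of the ligand, IL27 had 0 counts in all 15 libraries, which allows a level of up to 0.0885 to 0.147 CPM (3 counts per library), whereas its subunit partner EBI3 was present at 3.04 to 6.84 CPM.

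All 11 macrophage markers had a log2FC below 0 in WCOC vs. C, 5 of them called (CD163, MRC1, MSR1, AIF1 and CD68), with a median log2FC of −1.16. IL27RA was lower together with them. Control replicate 5 and DOP replicate 1 held both the highest macrophage marker sum and the highest IL27RA level of their diets. In WCOC, replicate 2 held the highest macrophage marker sum (346 CPM) and the lowest IL27RA level (6.96 CPM). The part of these markers in the IL27RA difference was not tested. IL10RA, the receptor chain that binds IL-10 and is carried by leukocytes, was not called beside them. This gene lies on the plus strand of chromosome 9 from 45310527 to 45324557. It ranged from 11.7 to 27 CPM in C, 8.26 to 19.2 CPM in DOP and 9.94 to 20.7 CPM in WCOC, with log2FCs of −0.48 ± 0.29 (adjusted p = 0.411) and −0.37 ± 0.29 (adjusted p = 0.44) against C. Its ligand IL10 had 5 to 29 counts per library. Its second chain, IL10RB, stood at 10.8 to 17.0 CPM.

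IL6R lies on the minus strand of chromosome 4 from 95322426 to 95381393. It read 30.8, 31.8, 28.7, 44.2 and 38.0 CPM in C. It read 33.4, 40.5, 44.2, 35.6 and 38.4 CPM in DOP. It read 66.4, 52.4, 54.2, 41.4 and 43.0 CPM in WCOC. Replicates 4 and 5 of WCOC lay below control replicate 4, and the other 3 above every control. The log2FC in WCOC vs. C was 0.57 ± 0.14 with an adjusted p of 0.0227, so it passed the limit on p and fell short of the limit of 0.58. It was 0.60 on flow cell A alone (adjusted p = 0.0713) and 0.60 with flow cell as a covariate (adjusted p = 0.0343), and the gene was called in 4 of the 15 fits that left out 1 library (without control replicate 4 or 5, or WCOC replicate 4 or 5). In DOP vs. C it was 0.15 ± 0.14 (adjusted p = 0.643), and in WCOC vs. DOP 0.42 ± 0.14 (adjusted p = 0.0631).

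IL6ST, the shared signalling chain (chromosome 16, 35101304 to 35151832, minus strand), ranged from 212 to 357 CPM in C, 257 to 293 CPM in DOP and 247 to 334 CPM in WCOC. The log2FC was 0.10 ± 0.13 in DOP (adjusted p = 0.758) and 0.16 ± 0.13 in WCOC (adjusted p = 0.464) against C. The DOP libraries were the most alike for this gene, with a coefficient of variation of 4.91%, compared with 23% in C. IL6ST overlaps LOC102168151 on the opposite strand. The related receptors LIFR and OSMR, which pair with gp130 for other ligands, stood at 91.2 to 173 CPM and 21.4 to 55.3 CPM and were not called.

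**Figure D3:**
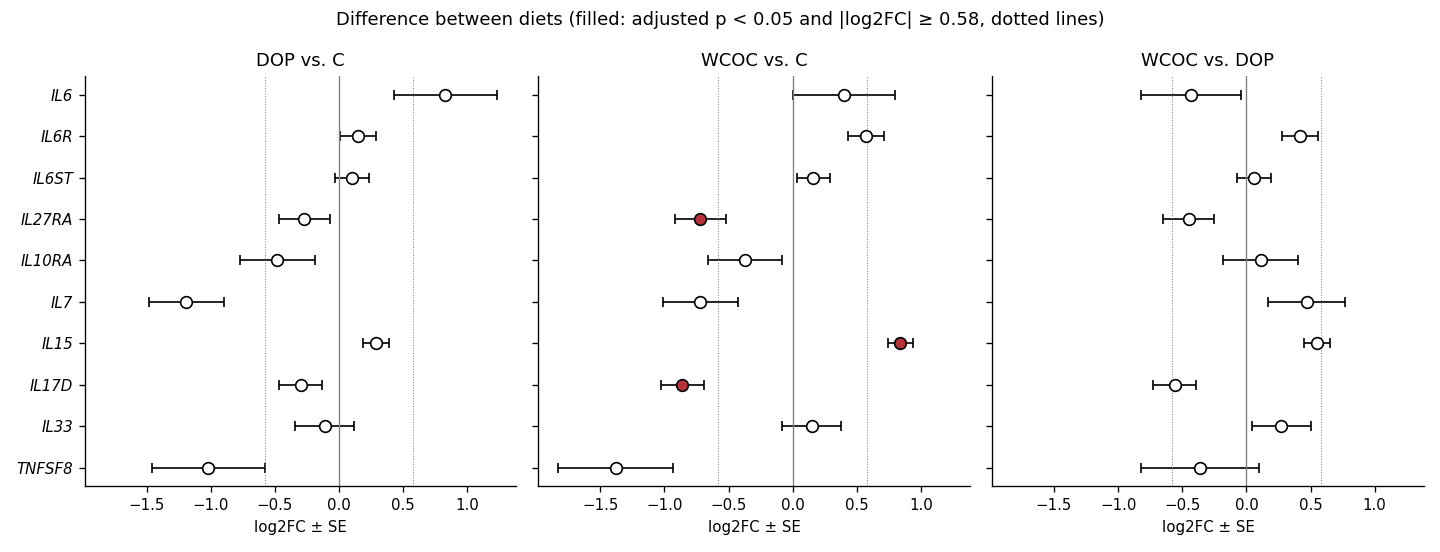
Log2FC with its SE for the 10 genes in the 3 comparisons, with filled points for called genes and dotted lines at ±0.58. In WCOC vs. C, IL15 (0.84), IL17D (−0.86) and IL27RA (−0.72) are filled, and no point is filled in the other 2 panels.

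The related pathways were described from 8 lists of other cytokines, receptors and signalling genes, with 135 genes, of which 108 were matched and 76 tested. In DOP vs. C, 0 of 76 were called, and 12 of 76 had an unadjusted p under 0.05, against 17.6% of all genes. DESeq2 called 3, beside 507 over all genes. In WCOC vs. C, 2 of 76 (2.63%) were called, both lower: IL2RG and TNFSF18. In WCOC vs. DOP, 4 of 76 (5.26%) were called, with SIGIRR and IL20RA higher and IL1RAP and IL1R2 lower. The shares of all genes called by edgeR are those given above, and no test compared the lists with them. The median log2FC of the 76 genes was −0.03 for DOP and −0.00 for WCOC against C, and 0.01 between the olive diets. None of the 16 tested genes of JAK-STAT signalling and its inhibitors, which carry the signal of most of these receptors, was called in any comparison by edgeR. None of the 15 of IL-1 receptor and TRAF signalling was called either. Of these, 5 of 16 and 3 of 15 had an unadjusted p under 0.05 in WCOC vs. C, against 26.4% of all genes. DESeq2 called 1 of them, CISH, an inhibitor induced by cytokine signals, in WCOC vs. C. Its log2FC in edgeR was 1.23 ± 0.47 (adjusted p = 0.109), and it is named here after its values were seen. IRAK2, IRAK3 and RELA, of the IL-1 receptor and TRAF list and also named after their values were seen, passed the limit on p alone. IRAK2 was at −0.57 ± 0.14 in WCOC vs. C (adjusted p = 0.0225), just short of the fold limit. In WCOC vs. DOP, IRAK3 was at 0.30 ± 0.09 (adjusted p = 0.0382) and RELA at 0.25 ± 0.08 (adjusted p = 0.0438).

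IL2RG, the common gamma chain used by IL-7 and IL-15, ranged from 6.13 to 25.6 CPM in C, 3.14 to 7.92 CPM in DOP and 3.02 to 6.70 CPM in WCOC. Its log2FC was −1.50 ± 0.42 in WCOC vs. C (adjusted p = 0.037) and −1.47 ± 0.42 in DOP vs. C (adjusted p = 0.108). Control replicates 3 and 5 were the 2 highest libraries, and the WCOC call was lost without either of them, without WCOC replicate 1, 3 or 4 and on flow cell A alone (−1.14, adjusted p = 0.109). In WCOC vs. C the ligand IL15 was higher and this chain of its receptor lower. Of the remaining chains, IL2RB ranged from 1.49 to 5.77 CPM and IL7R from 0.196 to 2.49 CPM, and neither was called. IL15RA and TNFRSF8 were not analysed here.

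TNFSF18, the ligand of the receptor GITR, stood at 1.09 to 3.60 CPM in C and 0.556 to 1.21 CPM in WCOC, with a log2FC of −1.50 ± 0.32 (adjusted p = 0.0117). It was −1.36 on flow cell A alone (adjusted p = 0.0689). SIGIRR, an inhibitory receptor of the IL-1 family, was higher in all 5 WCOC libraries (9.95 to 14.4 CPM) than in any DOP (6.49 to 8.07 CPM) or C library (7.13 to 9.66 CPM). Groups separated in this direction occurred for 4.14% of all genes against DOP and 3.75% against C. The log2FC of SIGIRR was 0.73 ± 0.12 against DOP (adjusted p = 0.00356) and 0.54 ± 0.12 against C (adjusted p = 0.0152, under the fold limit). With flow cell as a covariate it was 0.74 against DOP and was not called. IL1R2, the decoy receptor of IL-1, lay at 0.556 to 3.40 CPM in DOP and 0.254 to 0.944 CPM in WCOC (log2FC −1.73 ± 0.50, adjusted p = 0.0362), and IL1RAP had a log2FC of −0.66 ± 0.20 (adjusted p = 0.0435). With 1 library left out, the IL1R2 call held in 9 of 15 fits and the IL1RAP call in 2 of 15. Without DOP replicate 2 the values were −1.34 (adjusted p = 0.101) and −0.46 (adjusted p = 0.114). IL20RA, a receptor chain of IL-20 cytokines, had 2 to 5 counts per library in DOP, 2 to 12 in C and 8 to 26 in WCOC. Its log2FC of 1.85 ± 0.47 (adjusted p = 0.0205) rests on these few DOP counts. The gene was not called without WCOC replicate 5 (1.57, adjusted p = 0.0517). Of the 4 tested skeletal muscle markers, 2 were called lower in WCOC than in DOP (TNNC2 and TNNT3), with a median log2FC of −5.85, and their part in these differences was not tested. No flow cell held both DOP and WCOC libraries, so diet and flow cell cannot be told apart in this comparison except through control replicate 5.

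**Figure D4:**
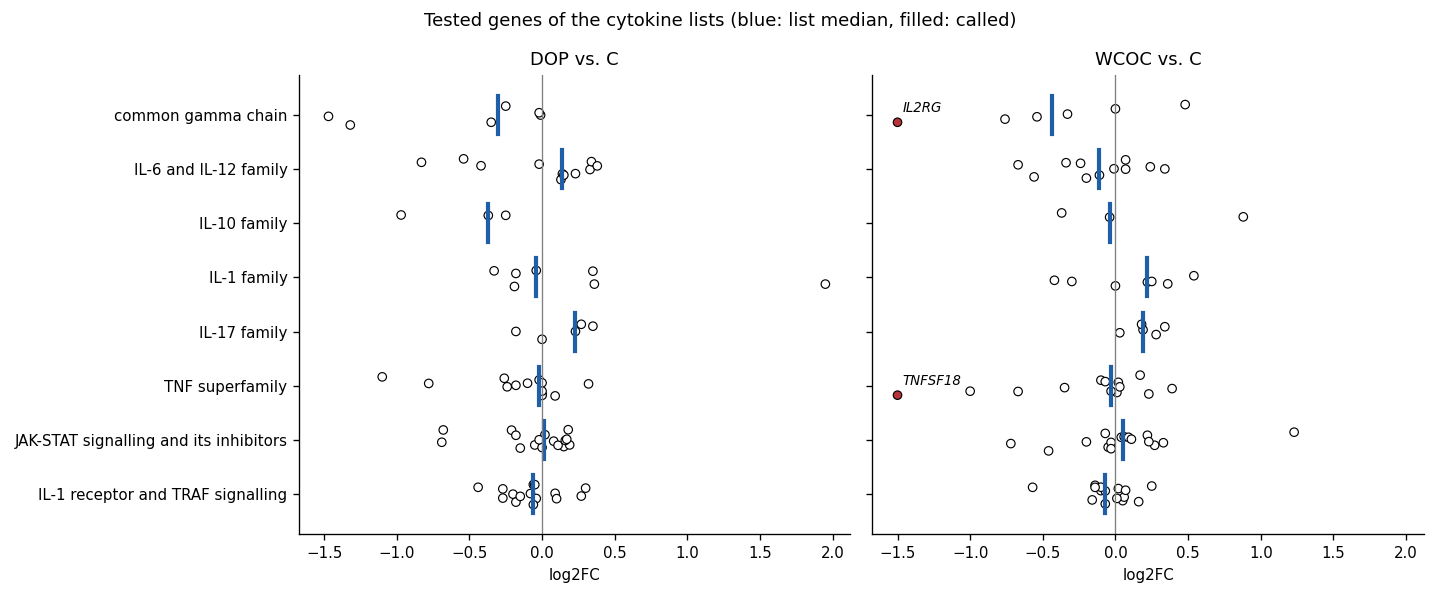
Log2FC of the 76 tested genes of the 8 lists in DOP vs. C and WCOC vs. C, 1 point per gene, with the median of each list in blue. Only IL2RG and TNFSF18 in WCOC vs. C are filled as called, both at −1.50.

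For the 3 called genes, the 3 genes most like each over the 15 libraries were found from log2 CPM centred within each diet. IL15 was most like ADGRF5 (Pearson r = 0.90), TAS1R3 (0.88) and LAYN (0.87). IL17D was most like LHFPL6 (0.95), COL16A1 (0.94) and IER5L (0.94). IL27RA was most like MYOF (0.92), ENSSSCG00000025499 (0.90) and FAM111B (0.89). The points share their libraries and the cell makeup of each biopsy, and the values are a description chosen among all tested genes with a mean of at least 1 CPM.

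**Figure D5:**
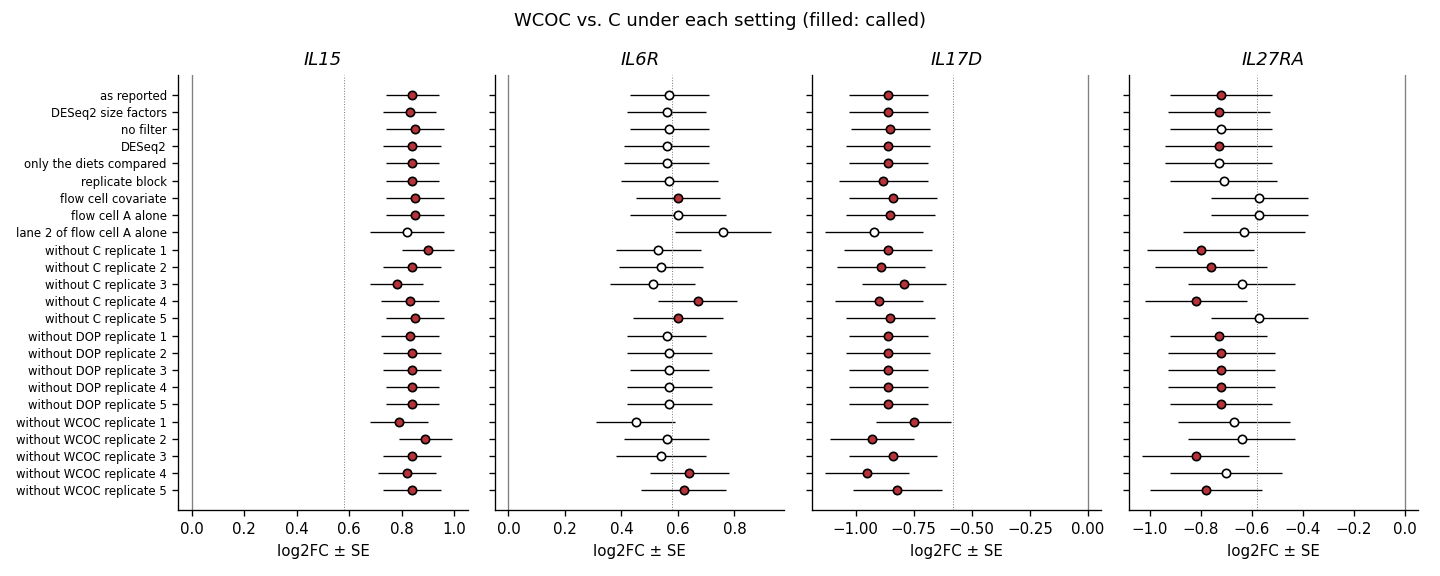
Log2FC with its SE in WCOC vs. C for IL15, IL6R, IL17D and IL27RA under each way of fitting and with each library left out, with filled points where the gene was called. IL15 stays between 0.78 and 0.90 and IL17D between −0.95 and −0.75, both unfilled only in lane 2 of flow cell A alone, while IL27RA and IL6R change between filled and open.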

How the data were processed

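Total RNA of backfat from 5 pigs per diet was sequenced as paired-end libraries. The authors aligned the reads to Sscrofa11.1 with HISAT2 in a strand-specific setting and assigned them to Ensembl genes with HTSeq-count. The deposited values are these raw counts, 1 column per pig and not normalized. Versions, the annotation release and the strand option of the counting are not given in the sources used here. The 5 summary lines per file were left out (23.4% to 32.8% of a library). The labels gave diet and replicate number, and run identifiers gave the flow cell and lane.

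The main test was edgeR 4.0.16 under R 4.3.3: filterByExpr kept 14918 genes, TMM factors were 0.857 to 1.21, and the 15 libraries entered 1 quasi-likelihood fit with diet means (common dispersion 0.0814). P-values were two-sided, with Benjamini-Hochberg adjustment across these genes, and the limits (adjusted p under 0.05, log2FC of at least 0.58 in size) are those of the study. The study used DESeq2, run here as an alternative (1.42.0). The others were DESeq2 size factors, no filter, only the diets compared, a replicate block, a flow cell covariate, the libraries of flow cell A, those of its lane 2, no limit on log2FC, and each library left out in turn. CPM used the TMM-scaled library sizes. Exon lengths, positions and promoters came from the RefSeq annotation of Sscrofa11.1, and 11955 tested genes had a symbol. The workflow was tested on simulated data. Python 3.11.15 made the tables and figures.

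The 10 genes, the pathway and marker lists and the motifs were chosen with earlier results of these data known. Named are the 10 genes, their direct receptor or ligand partners, every list gene past both limits in any comparison, and for each called gene of the 10 the 3 most correlated genes with a mean of at least 1 CPM. Of 14 partners, 12 were matched and 10 tested. P-values measure the spread between pigs of 1 pen per diet.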

Additional observations from a re-analysis of the deposited data

How the results depend on the processing

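Of the 3 calls in WCOC vs. C, IL15 and IL17D held under every alternative except lane 2 of flow cell A alone, an alternative chosen after seeing the data that left 4 C and 3 WCOC libraries (0.82, adjusted p = 0.067, and −0.92, adjusted p = 0.101). IL27RA held under 2 of 8 alternatives. Depth limits IL6, IL7 and TNFSF8, with 8 to 81 counts per library. Diet and flow cell are confounded for DOP.

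The number of the 10 genes called in DOP vs. C (0) was 1 with DESeq2 and 1 with flow cell as a covariate, and 0 to 1 with 1 library left out. In WCOC vs. C (3) it was 0 in lane 2 of flow cell A and 2 to 5 with 1 library left out. In WCOC vs. DOP (0) it was 2 without a limit on log2FC and 0 to 2 with 1 library left out.

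Among the list genes, DOP vs. C (0) gave 3 with DESeq2 and 0 to 0 with 1 library left out. WCOC vs. C (2) gave 1 with flow cell as a covariate, 0 on flow cell A, 0 in its lane 2, 4 without a limit on log2FC and 1 to 4 with 1 library left out. WCOC vs. DOP (4) gave 2 with only the diets compared, 0 with flow cell as a covariate, 8 without a limit on log2FC and 2 to 4 with 1 library left out.

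Over all genes, DOP vs. C (114) gave 507 with DESeq2, 2 with only the diets compared and 0 to 187 with 1 library left out. WCOC vs. C (933) gave 460 on flow cell A, 31 in its lane 2, 1493 without a limit on log2FC and 457 to 1166 with 1 library left out. WCOC vs. DOP (1158) gave 1 with flow cell as a covariate, 1842 without a limit on log2FC and 641 to 1271 with 1 library left out. The causes were not tested, beyond the smaller number of libraries in some fits.

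The replicate numbers only name the pigs: over the 15 same-number pairs the correlation of their deviations was −0.495 to 0.345 (median −0.099), with 3 above 0.1, and 0 of 15 libraries were most like their own number in both other diets. With the replicate block, the calls over all genes were 0 in DOP vs. C, 473 in WCOC vs. C and 561 in WCOC vs. DOP, the list genes called in WCOC vs. C were 1, and IL27RA was not called (log2FC −0.71).

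Reversals concerned differences that were not called. With flow cell as a covariate, WCOC vs. DOP turned to 0.19 for IL27RA, 0.41 for IL6 and 1.13 for TNFSF8. With 1 library left out, IL33 in DOP vs. C was −0.24 to 0.09 (above 0 without control replicate 2), and IL10RA in WCOC vs. DOP was −0.08 to 0.30 (−0.01 without DOP replicate 5 and −0.08 without WCOC replicate 5).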
